A study of Homo sapiens with 12 samples.

Results

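The 43 genes described here act in the repair of broken and crosslinked DNA. They were taken by name from the deposited gene table, which lists 60617 gene identifiers, and they comprise 4 genes of end resection, 9 of homologous recombination and strand exchange, 13 of the Fanconi pathway, 11 of damage signalling and 6 of end joining. All 43 passed the filter on low counts that left 15692 genes for testing, so no member was lost, and the lowest count of any member in any library was 29.

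The libraries come from the p53-null human colorectal cancer line HCT 116p53-/- and from a sub-line of it that the sample labels call RPL3 KO and that the study's methods describe as stably silenced for uL3, the ribosomal protein encoded by RPL3. Both lines are labelled p53-/-. Cells received vehicle or 5 nM Act D (actinomycin D, a DNA-binding drug that at low dose blocks RNA polymerase I) for 24 h, and each of the 4 groups had 3 libraries described as biological replicates. The sub-line is a single derived line, and whether separate cultures or splits of 1 culture were sequenced is not given beyond those words.

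When a chromosome breaks, the MRE11-RAD50-NBN complex binds the ends and, with the RBBP8 product CtIP, trims them to single strands, after which BRCA1, PALB2, BRCA2 and the proteins of the RAD51C and XRCC2 family prepare the single strand to copy the sister chromatid. Broken ends can instead be rejoined directly by the Ku proteins, DNA-PKcs and the XRCC4-LIG4 ligase. The Fanconi core complex ubiquitinates FANCD2 and FANCI at crosslinked DNA, nucleases such as SLX4-bound XPF-ERCC1 unhook the lesion, and the kinases ATM and ATR with their mediators signal that damage is present.

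Depth was between 10087925 and 21138886 counts per library. Expression is given as CPM, counts per 1000000 of a library's size as normalized by edgeR's TMM method, and as TPM, the deposited transcripts per 1000000, where the levels of different genes are compared. Fold changes and the overlap of groups refer to counts and CPM unless TPM is named. RPL3 itself was expressed at 1140 ± 15.3 CPM (mean ± SD of 3 libraries) in vehicle-treated HCT 116p53-/- cells and at 1240 ± 82.5 CPM in the vehicle-treated libraries labelled RPL3 KO, a log2 fold change of 0.13 (SE 0.08, adjusted p = 0.155, from quasi-likelihood F tests in edgeR adjusted by Benjamini and Hochberg's method over all genes, as for every adjusted p below). Scaled by library size alone the value was -0.11. RPL3 mRNA was therefore not called lower in the libraries that carry that label, and the direction of every line difference below refers to the label alone. The lines differed in 71.3% of all genes tested with vehicle. CDH1, the epithelial cadherin, was at 66.8 ± 2.34 CPM in vehicle-treated HCT 116p53-/- cells and at 0.445 ± 0.271 CPM in the libraries labelled RPL3 KO, and CDX2, an intestinal transcription factor, was at 14.8 ± 0.581 and 0.177 ± 0.0862 CPM. The summed level of 12 mesenchymal markers was between 58.6 and 71.1 CPM in the former and between 2630 and 2700 CPM in the latter, while 12 colon epithelial markers summed to between 2620 and 2830 CPM and between 1610 and 1810 CPM. With vehicle, 6 of those 12 epithelial markers, CDH1 and CDX2 among them, were under 1 CPM in all 3 libraries labelled RPL3 KO, against 2 of the 12 in HCT 116p53-/- cells. For the mesenchymal list these numbers were 3 and 6 of 12. Of 10 epithelial markers tested 8 were called lower and 1 higher in the libraries labelled RPL3 KO. Of 10 mesenchymal markers tested 8 were called higher and 1 lower. Of 5 leukocyte markers 4 were under 1 CPM in every group. The 1 marker tested was called higher in the libraries labelled RPL3 KO (log2 fold change 2.74 with vehicle). With vehicle the 5 summed to between 1.03 and 1.62 CPM in HCT 116p53-/- cells and to between 5.22 and 7.71 CPM in those libraries.

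The repair genes spanned a wide range of expression. By median TPM over the 12 libraries the most abundant were XRCC6 (127 to 279 TPM) and XRCC5 (median 126 TPM), which encode the Ku subunits that bind DNA ends, followed by H2AX (55.3 TPM), the histone variant phosphorylated beside breaks. The least abundant were FANCC (1.77 TPM) and FANCF (1.01 TPM), members of the Fanconi core complex, and SLX4 (0.99 TPM), the nuclease scaffold. PARP1 (54.3 TPM), the break sensor that makes poly(ADP-ribose), and PRKDC (50.0 TPM), which encodes DNA-PKcs, lay close to H2AX, and the ranges of these 3 genes over the libraries overlapped. Among recombination genes RAD51C had a median of 22.3 TPM, BRCA1 7.19 TPM, PALB2 6.6 TPM and BRCA2 1.92 TPM.

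**Figure D1:**
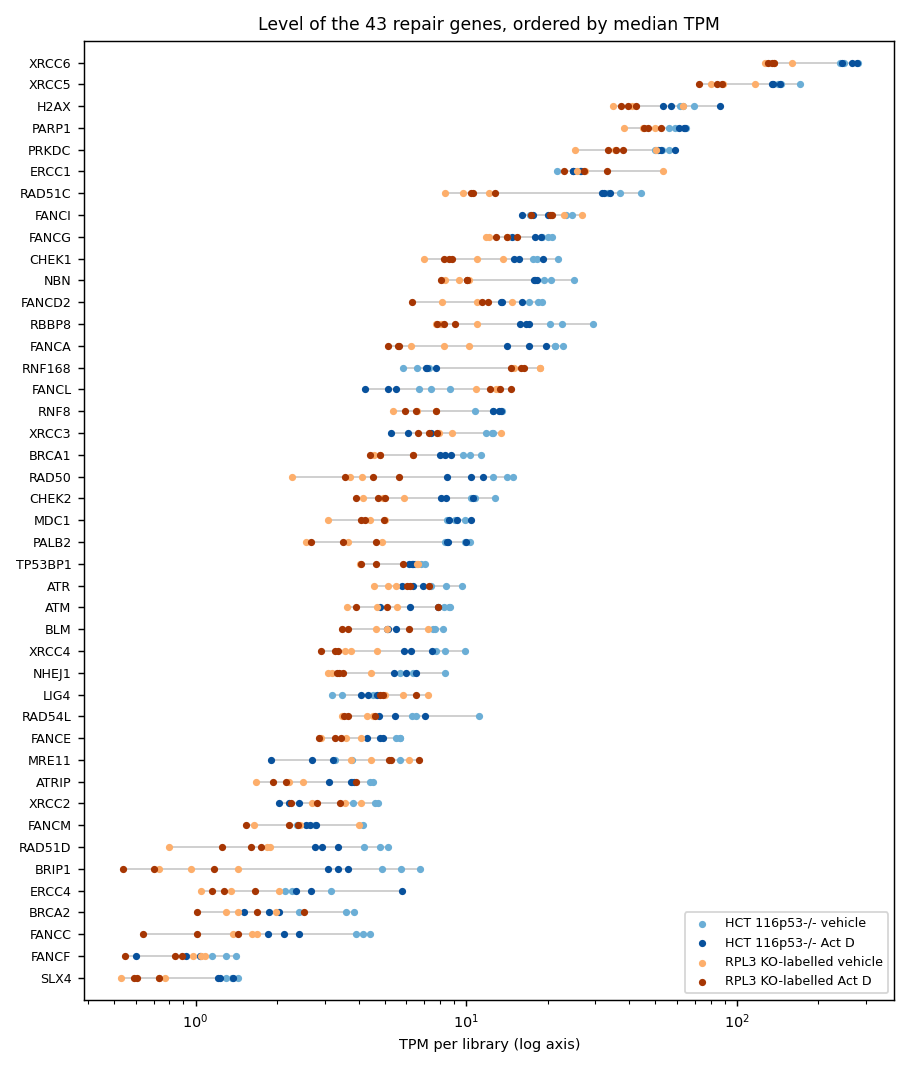
TPM of each repair gene in each of the 12 libraries (log axis), with genes ordered by their median. Points are libraries coloured by group and grey lines span the lowest to the highest library. XRCC6 heads the order with 127 to 279 TPM and SLX4, at a median of 0.99 TPM, closes it.

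The first comparison asks how the repair genes differed between the lines without drug. With vehicle, 26 members were lower and 6 higher in the libraries labelled RPL3 KO, where 36.2% of all genes tested were lower and 35.1% higher, and 11 were not called. The members' median log2 fold change was -0.40 and that of all genes -0.02. Groups did not overlap for 36 members (83.7%), against 72.5% of all genes. By role, 3 of 4 resection genes, 6 of 9 recombination genes, 6 of 13 Fanconi genes, 6 of 11 signalling genes and 5 of 6 end-joining genes were lower. The 6 that were higher were 1 resection gene, 3 Fanconi genes, 1 signalling gene and 1 end-joining gene.

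**Figure D2:**
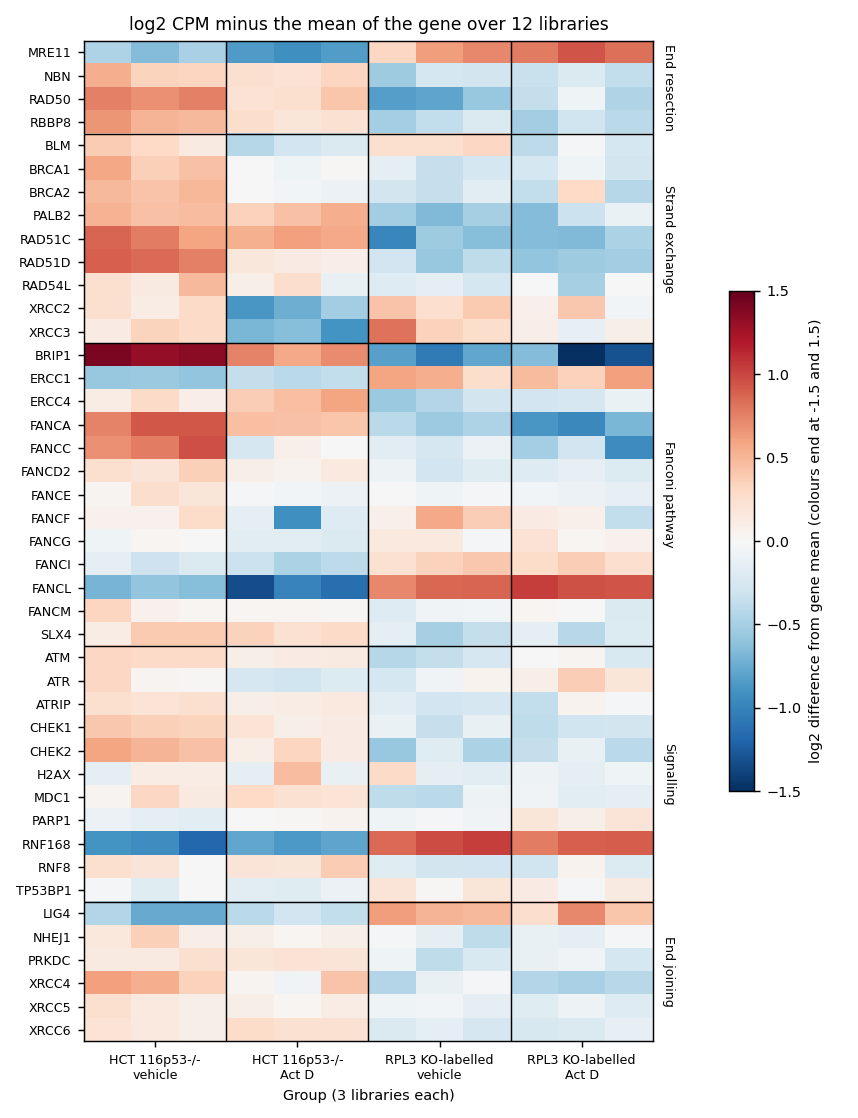
Each row is a repair gene, grouped by role, and each column a library. Colour gives log2 CPM minus the mean of that gene over the 12 libraries. Most rows are redder in the 6 HCT 116p53-/- libraries at the left, whereas RNF168, FANCL, MRE11, LIG4, ERCC1 and FANCI are redder in the 6 libraries labelled RPL3 KO.

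Among resection genes, the subunits of a single complex went in opposite directions. RAD50 (ENSG00000113522, chromosome 5 of hg38 from 132556019 to 132646349, plus strand), the coiled-coil ATPase that tethers ends, was at 74.7, 70.7 and 74.5 CPM in vehicle-treated HCT 116p53-/- cells and at 24.9, 25.5 and 29.7 CPM in the libraries labelled RPL3 KO. Every library of the former lay far above every library of the latter, a log2 fold change of -1.46 (SE 0.11, adjusted p = 8.41e-10). MRE11 (ENSG00000020922, chromosome 11, 94415570 to 94493885, minus strand), the nuclease of the complex, was at 13.9, 12.2 and 13.7 CPM against 23.8, 29.5 and 31.5 CPM. Here the HCT 116p53-/- libraries were the low ones, again without overlap, and the log2 fold change was 1.09 (SE 0.12, adjusted p = 1.46e-07). In TPM the MRE11 libraries of the lines overlapped, at 5.7, 3.28 and 3.78 against 4.44, 3.74 and 6.13. NBN, the adaptor that recruits ATM, was lower (113 ± 10.0 against 67.0 ± 7.06 CPM, log2 fold change -0.75, SE 0.09), and RBBP8, which activates MRE11, was lower as well (77.0 ± 5.3 against 40.8 ± 4.09 CPM, log2 fold change -0.91, SE 0.09). RAD50 shares 76.9% of its exonic bases with a read-through gene on the same strand. RSEM's posterior SD for RAD50 was between 1.79% and 9.51% of its count in the 11 libraries for which it was deposited, while for the other 42 members it was under 5% in each of them, and the read-through gene was at 1.93 and 1.88 CPM in the vehicle groups.

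Of the strand exchange genes, RAD51C (ENSG00000108384, chromosome 17, 58692573 to 58735611, plus strand), which acts in strand exchange, was at 40.6, 37.7 and 33.3 CPM in vehicle-treated HCT 116p53-/- cells and at 11.2, 15.3 and 14.2 CPM in the libraries labelled RPL3 KO (log2 fold change -1.44, SE 0.12, adjusted p = 4.94e-09). A gene of the same family, RAD51D, was at 24.6, 23.8 and 22.2 CPM against 10.8, 8.91 and 10.1 CPM (log2 fold change -1.25, SE 0.11, adjusted p = 1.19e-08). PALB2, which bridges BRCA1 and BRCA2, was at 34.8, 33.0 and 33.5 CPM against 16.9, 15.3 and 17.2 CPM (log2 fold change -1.04, SE 0.12, adjusted p = 4.3e-07). For all 3 genes the libraries of one line stood clear of those of the other. BRCA1 and BRCA2 were also lower, with log2 fold changes of -0.71 (SE 0.09) and -0.74 (SE 0.14), and so was the translocase RAD54L (-0.49, SE 0.14). The family members XRCC2 (0.14, SE 0.12) and XRCC3 (0.24, SE 0.13) and the helicase BLM (-0.01, SE 0.10) were not called, and their groups overlapped.

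The widest differences of single genes were those of BRIP1, in the Fanconi group, and RNF168, in the signalling group. As groups these differed less, with median log2 fold changes of -0.23 and -0.40. The medians were -0.83 for resection, -0.71 for recombination and -0.36 for end-joining genes. BRIP1 (ENSG00000136492, chromosome 17, 61679139 to 61863559, minus strand), the BRCA1-bound helicase also known as FANCJ, was at 41.4, 38.8 and 39.8 CPM in vehicle-treated HCT 116p53-/- cells. In the libraries labelled RPL3 KO it was at 8.84, 7.46 and 9.05 CPM, a 4.76-fold lower level (log2 fold change -2.25, SE 0.15, adjusted p = 2.71e-10). FANCA, a core complex subunit, was at 53, 60.4 and 60.3 CPM against 23.9, 21.7 and 23.0 CPM (log2 fold change -1.34, SE 0.09, adjusted p = 5.62e-10). Both genes separated the lines without overlap, and FANCC (-0.98, SE 0.15), SLX4 (-0.64, SE 0.14), the nuclease subunit ERCC4 (-0.59, SE 0.12) and FANCD2 (-0.45, SE 0.08) were lower too.

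Higher in the libraries labelled RPL3 KO was RNF168 (ENSG00000163961, chromosome 3, 196468783 to 196503768, minus strand), the ubiquitin ligase that marks histones beside breaks. It was at 46.1, 45.0 and 38.0 CPM in vehicle-treated HCT 116p53-/- cells and at 155, 169 and 177 CPM in the other line, with no overlap (log2 fold change 1.96, SE 0.09, adjusted p = 1.66e-12). FANCL (ENSG00000115392, chromosome 2, 58159243 to 58241410, minus strand), the ubiquitin ligase of the core complex, was at 11, 11.8 and 11.4 CPM against 29.2, 32.3 and 32.6 CPM (log2 fold change 1.46, SE 0.11, adjusted p = 7.94e-10). The ligases of the histone and FANCD2-FANCI steps were thus both expressed above the HCT 116p53-/- range, in TPM as in CPM. The substrate FANCI was above it in CPM (94.7 ± 5.52 against 138 ± 8.87 CPM, log2 fold change 0.55, SE 0.08, adjusted p = 8.18e-06). In TPM the FANCI libraries of the lines overlapped (24.6, 17.2 and 23.4 against 26.7, 20.5 and 23.0). ERCC1, the partner of ERCC4, was at 31.7, 32.0 and 31.2 CPM against 70.6, 68.8 and 56.2 CPM (log2 fold change 1.04, SE 0.10, adjusted p = 2.68e-08). In TPM its libraries overlapped (26.2, 21.6 and 26.3 against 53.2, 27.5 and 25.7). ERCC1 and ERCC4 encode subunits of a single nuclease, and here too the subunits differed in opposite directions. An antisense neighbour, POLR1G, covers 28.6% of ERCC1 exonic bases, and it was lower in those libraries (log2 fold change -1.64, adjusted p = 3.82e-10), the direction opposite to ERCC1.

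Other signalling genes were mostly lower. The checkpoint kinases CHEK2 (-0.90, SE 0.13) and CHEK1 (-0.55, SE 0.09), the apical kinase ATM (-0.64, SE 0.09), the ATR partner ATRIP (-0.47, SE 0.12), the scaffold MDC1 (-0.45, SE 0.10) and the ubiquitin ligase RNF8 (-0.40, SE 0.11) passed the test. ATR, TP53BP1, H2AX and PARP1 were not called, with log2 fold changes between -0.21 and 0.19. In TPM, however, ATR (9.68, 8.42 and 7.41 against 5.48, 4.55 and 5.15) was lower in the libraries labelled RPL3 KO without overlap. So was PARP1 (64.6, 56.1 and 59.1 against 50.0, 38.2 and 45.1 TPM), while TP53BP1 and H2AX overlapped in TPM. In end joining the abundant Ku and DNA-PKcs genes were lower, in CPM by little: XRCC5 (-0.24, SE 0.07), XRCC6 (-0.35, SE 0.07) and PRKDC (-0.39, SE 0.09). Mean TPM, HCT 116p53-/- cells first, was 153 against 95.3 for XRCC5, 256 against 141 for XRCC6 and 52.9 against 37.0 for PRKDC. In TPM the libraries of the lines overlapped for PRKDC and did not for XRCC5 and XRCC6. LIG4, the ligase of that pathway, was the exception in direction, at 21.9, 17.6 and 17.6 CPM in vehicle-treated HCT 116p53-/- cells and at 45.9, 42.4 and 41.5 CPM in the libraries labelled RPL3 KO (log2 fold change 1.19, SE 0.12, adjusted p = 7.53e-08). Its binding partner XRCC4 was lower (16.3 ± 1.54 against 10.1 ± 1.48 CPM, log2 fold change -0.68, SE 0.14), and NHEJ1, the accessory factor XLF, was lower (-0.38, SE 0.12), a difference that was not called without vehicle-treated HCT 116p53-/- replicate 2 (log2 fold change -0.30, adjusted p = 0.0538) or without vehicle-treated RPL3 KO-labelled replicate 3 (-0.29, adjusted p = 0.0572).

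Scaling by library size alone moved the median of all genes in this comparison to -0.26, so that the split over all genes became 4202 higher and 6974 lower in place of 5501 and 5684, and the members' split became 6 higher and 30 lower. The 6 members that were higher stayed so. In bulk libraries fewer cells of a type and less RNA per cell cannot be told apart. Of 22 S phase genes 14 were lower and 5 higher, and of 20 G2/M genes 10 were lower and 6 higher, beside 36.2% lower and 35.1% higher over all genes. The S phase genes summed to between 3370 and 3440 CPM in HCT 116p53-/- cells and to between 2940 and 3250 CPM in the libraries labelled RPL3 KO. These lists, like the epithelial and mesenchymal markers, moved with the line, and their part in the differences of the repair genes was not tested.

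The lines were compared again in the Act D-treated libraries, which share no library with the vehicle comparison. There 20 members were lower and 11 higher in the libraries labelled RPL3 KO, where 70.4% of all genes tested were called, 35.3% lower and 35.1% higher, with a median of -0.22 over the members and -0.02 over all genes. Groups did not overlap for 35 members, which is 81.4%, against 74.1% of all genes. Of the members called, 26 were called with both treatments and all 26 had the same direction in both, which is 81.2% of the 32 called with vehicle and 83.9% of the 31 called with Act D. Over all genes 9612 were called with both treatments, 9511 of them in the same direction. These 9612 are 85.9% of the genes called with vehicle and 87.0% of those called with Act D, slightly above the members' shares.

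**Figure D3:**
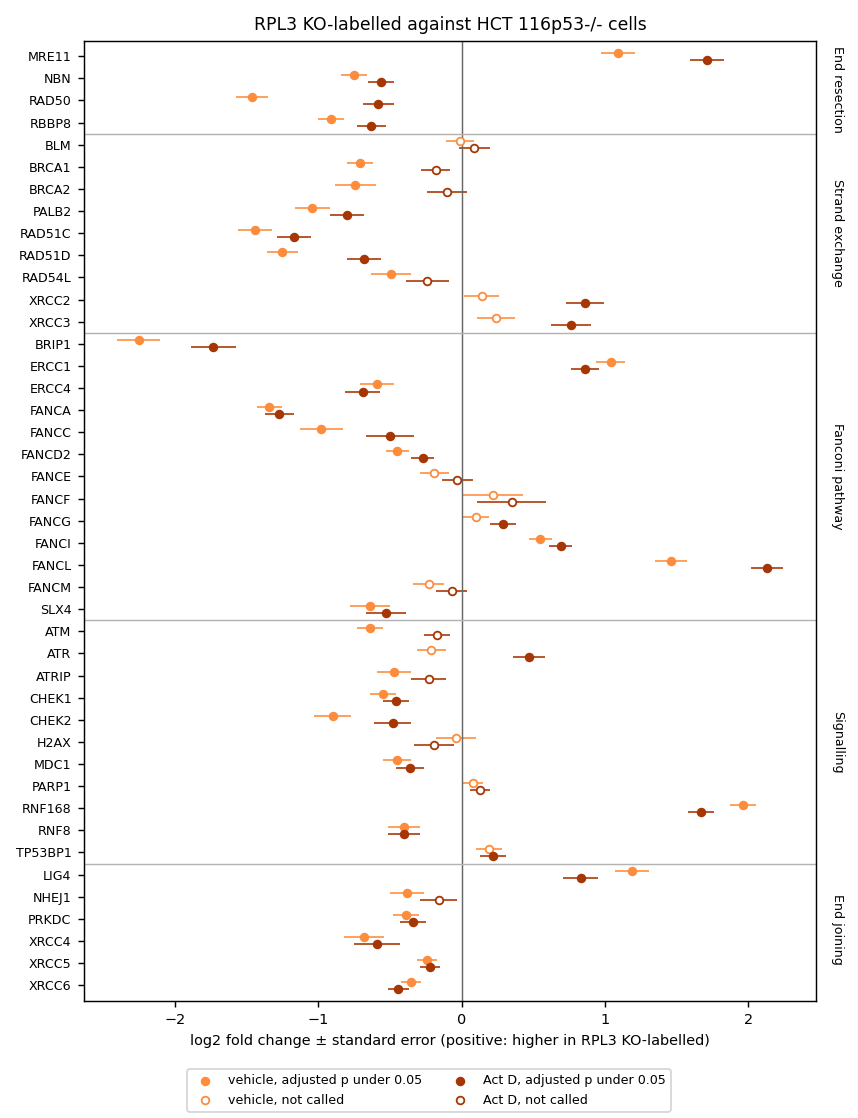
log2 fold change between the lines for each repair gene with vehicle and with Act D, where positive values are higher in the libraries labelled RPL3 KO. Bars are standard errors and filled points have an adjusted p under 0.05. BRIP1 lies farthest to the left with vehicle (-2.25) and FANCL farthest to the right with Act D (2.13).

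The order of the genes changed at the top. With Act D the largest difference belonged to FANCL, at 7.1, 8.86 and 8.12 CPM in HCT 116p53-/- cells and at 36.5, 34.6 and 34.1 CPM in the libraries labelled RPL3 KO (log2 fold change 2.13, SE 0.11, adjusted p = 1.22e-11). MRE11 was at 10.6, 10.1 and 10.7 CPM against 32.7, 36.7 and 33.9 CPM (log2 fold change 1.71, SE 0.12, adjusted p = 6.85e-10). RNF168 was at 50.1, 47.5 and 49.9 CPM against 147, 160 and 161 CPM (log2 fold change 1.67, SE 0.09, adjusted p = 1.82e-11). In each of these the HCT 116p53-/- libraries were the low ones and stood apart. XRCC2 and ERCC1 followed with log2 fold changes of 0.86 each (SE 0.13 and 0.10), and LIG4 with 0.83 (SE 0.12). In TPM the Act D-treated libraries of the lines overlapped for XRCC2 and ERCC1 and did not for LIG4. On the lower side BRIP1 (-1.73, SE 0.16), FANCA (-1.27, SE 0.10), RAD51C (-1.17, SE 0.12) and PALB2 (-0.80, SE 0.12) led, followed by ERCC4 (-0.69, SE 0.12) and RAD51D (-0.68, SE 0.12), with separate groups in each.

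Called with Act D and not with vehicle were XRCC2, XRCC3, FANCG, ATR and TP53BP1, all higher in CPM, while BRCA1, BRCA2, RAD54L, ATM, ATRIP and NHEJ1 were called with vehicle and not with Act D. In mean TPM, HCT 116p53-/- cells first, XRCC2 (2.22 against 2.83), XRCC3 (6.25 against 7.22) and ATR (6.35 against 6.52) were higher too. The TPM libraries of the lines overlapped for each of these genes. KLC1, which overlaps XRCC3 on the opposite strand, was also higher in the libraries labelled RPL3 KO. Its log2 fold change was 0.63 with Act D (adjusted p = 0.000156) and 0.61 with vehicle (adjusted p = 0.000141). FANCG (17.2 against 14.1) and TP53BP1 (6.28 against 4.84) were lower in TPM. Whether a line difference depended on treatment is the interaction tested further on. The calls of FANCG and TP53BP1 were weak: FANCG was not called without Act D-treated HCT 116p53-/- replicate 3 (adjusted p = 0.0702) or RPL3 KO-labelled replicate 1 (adjusted p = 0.0654), and TP53BP1 was lost when any of 5 of the 6 Act D-treated libraries was left out, with adjusted p between 0.0835 and 0.193, the exception being RPL3 KO-labelled replicate 2. FANCC (-0.50, SE 0.17) was not called without HCT 116p53-/- replicate 2 (adjusted p = 0.057) or RPL3 KO-labelled replicate 3 (adjusted p = 0.0553). With library size alone, which moved the median of all genes to -0.26 here as well, the split over all genes was 4244 higher and 6825 lower, that over the members 8 and 29, TP53BP1 reversed to -0.02, and FANCG (0.04, adjusted p = 0.739) and ATR (0.22, adjusted p = 0.0725) were not called.

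The second question was what Act D did to these genes in HCT 116p53-/- cells. Of the 43 members 13 fell and 0 rose, where 18.7% of all genes tested changed, 11.1% fell and 7.59% rose. The members' median log2 fold change was -0.18 and that of all genes 0.02, and groups did not overlap for 32 members (74.4%), against 38.2% of all genes. With 0 called as higher by edgeR, 4 were higher at an unadjusted p under 0.05, and DESeq2 called 1 higher, PARP1 (0.16). The genes that fell were 2 of 4 resection genes, 6 of 9 recombination genes, 4 of 13 Fanconi genes and 1 of 11 signalling genes. In end joining edgeR and DESeq2 called 0 of 6, and 2 had an unadjusted p under 0.05, 1 in each direction. Upper-quartile scaling called 1 member higher, ERCC4 (0.34), and library size alone called 18 lower, with 551 genes higher and 2309 lower over all genes in place of 1191 and 1748.

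XRCC3 (ENSG00000126215, chromosome 14, 103697609 to 103715504, minus strand), which acts with RAD51C, fell most. It was at 29.4, 33.9 and 32.8 CPM with vehicle and at 16.7, 17.3 and 14.5 CPM with Act D (log2 fold change -0.98, SE 0.14, adjusted p = 7.17e-05). XRCC2 (ENSG00000196584, chromosome 7, 152644776 to 152676193, minus strand), which acts with RAD51D, was at 27.4, 25.2 and 28.3 CPM and then at 12.7, 14.0 and 16.2 CPM (log2 fold change -0.92, SE 0.13, adjusted p = 6.07e-05). For both genes no Act D library reached the lowest vehicle library. KLC1, on the opposite strand, covers 76.7% of the exonic bases of XRCC3, and it fell too (log2 fold change -0.60, adjusted p = 0.00162). The strandedness of the libraries is not given in the sources used here. RSEM's posterior SD for XRCC3 was at most 0.143% of its count in the 11 libraries for which it was deposited. How far reads of these overlapping genes were told apart was not tested.

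FANCC, a core complex subunit, was at 13.7, 14.5 and 16.6 CPM with vehicle and at 7.16, 8.99 and 8.44 CPM with Act D (log2 fold change -0.87, SE 0.15, adjusted p = 0.000541). RAD51D fell from the levels given above to 14.8, 14.3 and 14.1 CPM (log2 fold change -0.71, SE 0.11, adjusted p = 0.000153). BRIP1 fell to 25.9, 23.1 and 25.3 CPM (log2 fold change -0.69, SE 0.14, adjusted p = 0.00167). In all 3 the treated libraries lay wholly below the vehicle libraries. BLM (ENSG00000197299, chromosome 15, 90717346 to 90816166, plus strand), the helicase that dissolves recombination intermediates, was at 46.0, 43.6 and 38.8 CPM and then at 26.3, 28.9 and 30.3 CPM (log2 fold change -0.59, SE 0.11, adjusted p = 0.000715). The remaining falls were smaller: BRCA2 (-0.52, SE 0.14), FANCL (-0.51, SE 0.12), BRCA1 (-0.48, SE 0.09), RAD50 (-0.44, SE 0.10), FANCA (-0.44, SE 0.09), ATR (-0.39, SE 0.11) and RBBP8 (-0.33, SE 0.09).

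Of these 13 calls 10 held in each of the 14 alternatives run. BRCA2 was not called without Act D replicate 3 (adjusted p = 0.0577). ATR was lost without vehicle replicate 1 (adjusted p = 0.0923) or Act D replicate 1 or 2 (0.0583 and 0.0685), and RBBP8 without vehicle replicate 1 (0.0793) or Act D replicate 2 or 3 (0.0712 and 0.0637). Without vehicle replicate 1 LIG4 was called as higher (0.40). The end-joining genes had log2 fold changes between -0.36 for XRCC4 and 0.29 for LIG4, and PRKDC (0.02, SE 0.09) and XRCC5 (-0.09, SE 0.07) had the smallest.

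For the genes that led the responses to Act D, the sequence just upstream of the RefSeq start (GRCh38.p14) is shown, limited to bases in no GENCODE v44 exon. Capitals mark matches, on either strand, to the NF-Y box CCAAT, read as ATTGG on the other strand, to the E2F letters, TTCCCGC or TTGGCGC or TTCGCGC or TTGCCGC, and to the CHR element TTTGAA, motifs of factors that act at many cell cycle genes. XRCC3 lies at chr14:103715505-103715701 on the minus strand, XRCC2 at chr7:152676194-152676391 on the minus strand, BLM at chr15:90717142-90717345 on the plus strand and RAD50 at chr5:132556839-132556929 on the plus strand, within the GENCODE gene.
XRCC3: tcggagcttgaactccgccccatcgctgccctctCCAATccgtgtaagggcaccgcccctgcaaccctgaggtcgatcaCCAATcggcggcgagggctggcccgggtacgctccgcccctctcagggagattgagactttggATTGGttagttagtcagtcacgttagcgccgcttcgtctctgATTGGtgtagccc
XRCC2: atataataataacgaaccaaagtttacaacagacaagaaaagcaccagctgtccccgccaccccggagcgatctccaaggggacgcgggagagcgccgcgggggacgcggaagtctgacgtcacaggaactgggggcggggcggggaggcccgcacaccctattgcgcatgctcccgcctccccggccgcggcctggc
BLM: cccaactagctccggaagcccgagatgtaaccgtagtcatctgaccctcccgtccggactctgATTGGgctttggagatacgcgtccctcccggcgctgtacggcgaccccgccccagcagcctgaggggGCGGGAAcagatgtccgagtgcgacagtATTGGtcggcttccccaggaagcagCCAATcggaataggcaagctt
RAD50: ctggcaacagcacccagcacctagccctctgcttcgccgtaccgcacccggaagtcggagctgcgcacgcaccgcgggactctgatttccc

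The XRCC3 stretch holds 4 NF-Y matches and the BLM stretch holds 3 together with 1 E2F match, 74 bases upstream of the start, whereas the XRCC2 and RAD50 stretches hold none of these letters. Among the 39 members with an entry in the promoter table, 18 (46.2%) held an NF-Y match in the 250 bases upstream of the start, against 35.1% of tested genes and 33% of all 27305 promoters. An E2F match was held by 9 members (23.1%), against 17.4% of tested genes and 11% of all promoters, and a CHR match by 5 (12.8%), against 8.53% and 13.6%. A match is a description of the sequence, not a site.

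In the libraries labelled RPL3 KO 3 of the 43 members fell with Act D and 2 rose, where 11.9% of all genes tested changed, 8.4% fell and 3.51% rose, the members' median being 0.02 and that of all genes 0.03. Groups did not overlap for 10 members (23.3%), against 27.6% of all genes. BLM was at 41.6, 41.7 and 43.8 CPM in vehicle libraries and at 26.8, 34.8 and 29.5 CPM after Act D, all 3 below the vehicle range (log2 fold change -0.49, SE 0.11, adjusted p = 0.00575). This fall was called in all 14 alternatives.

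XRCC3 was at 47.5, 34.2 and 32.2 CPM with vehicle, replicate 1 standing above the others, and at 28.6, 24.7 and 28.6 CPM with Act D (log2 fold change -0.47, SE 0.13, adjusted p = 0.0303). Its antisense neighbour KLC1 fell as well (log2 fold change -0.58, adjusted p = 0.00297). FANCA was at 17.3, 16.2 and 19.7 CPM with Act D (log2 fold change -0.37, SE 0.10, adjusted p = 0.0256). The genes that rose were RAD50, at 34.5, 42.1 and 32.2 CPM with Act D (log2 fold change 0.44, SE 0.11, adjusted p = 0.0128), and ATM, at 30.8, 32.3 and 34.8 CPM with vehicle and at 41.3, 42.5 and 35.4 CPM with Act D (log2 fold change 0.29, SE 0.09, adjusted p = 0.0493). In CPM the Act D libraries of all 5 genes lay wholly outside the vehicle range. In TPM this held for XRCC3 and FANCA only. BLM was at 7.22, 4.63 and 5.1 TPM with vehicle and at 3.67, 6.12 and 3.48 TPM with Act D. RAD50 was at 4.12, 2.28 and 3.71 TPM and then at 4.52, 5.66 and 3.55 TPM. ATM was at 5.57, 3.64 and 4.69 TPM and then at 5.09, 7.85 and 3.91 TPM.

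Apart from BLM these calls depended on which libraries entered. RAD50 was not called without vehicle replicate 2 (adjusted p = 0.0513) or Act D replicate 2 (0.0922). XRCC3 was lost without vehicle replicate 1 (-0.28, adjusted p = 0.139), Act D replicate 1 (0.0599) or Act D replicate 2 (0.0947). FANCA was lost without any library but vehicle replicate 2 and Act D replicate 3, and ATM without any but Act D replicate 3, at adjusted p of up to 0.085 and 0.194. With upper-quartile scaling 4 members rose (RAD50, ATM, ATR and PARP1) and 1 fell (BLM), with 944 genes higher and 1012 lower over all genes in place of 551 and 1318, and with library size alone that split was 227 and 1858, 1 member rose and 3 fell.

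**Figure D4:**
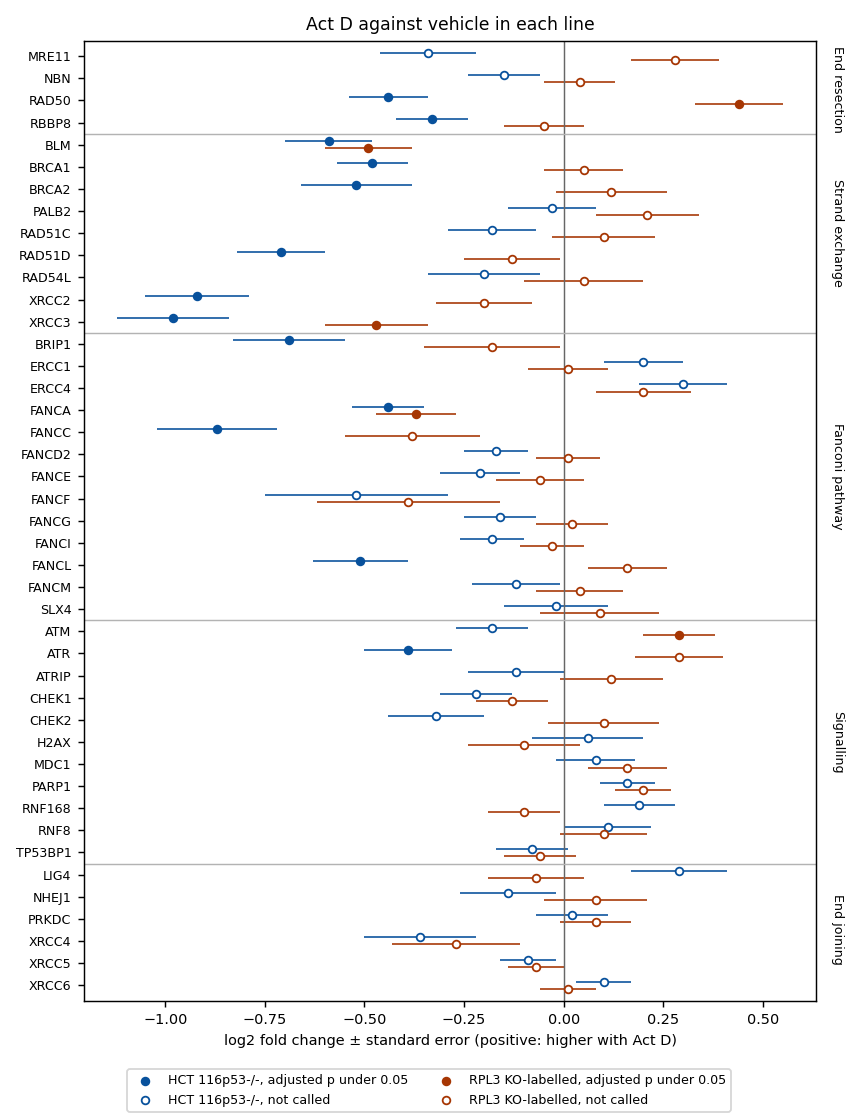
log2 fold change with Act D for each repair gene in HCT 116p53-/- cells and in the libraries labelled RPL3 KO. Bars are standard errors and filled points have an adjusted p under 0.05. The 13 filled points of HCT 116p53-/- cells all lie left of 0, from -0.98 to -0.33, and the other line has filled points on both sides, from -0.49 to 0.44.

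The lines were then set against each other in their responses, with no library shared between the responses. Of the members 4 were called in both lines, which is 30.8% of the 13 called in HCT 116p53-/- cells and 80% of the 5 called in the libraries labelled RPL3 KO. Over all genes 768 were called in both, which is 26.1% and 41.1% of the genes called in each, and 706 of them had the same direction. XRCC3, BLM and FANCA fell in both, and RAD50 fell in the former and rose in the latter. The difference of the responses itself, the interaction, was called for 8 members, all 8 with the more positive response in the libraries labelled RPL3 KO, where 6.53% of all genes tested were called, 3.3% in that direction and 3.23% in the opposite. In the opposite direction 2 members had an unadjusted p under 0.05 and DESeq2 called 0. The members' median interaction was 0.17 and that of all genes -0.01, and 36 of the 43 had a positive value.

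RAD50 had the largest interaction, 0.88 (SE 0.15, adjusted p = 0.00205). Its treated libraries lay below the vehicle libraries in HCT 116p53-/- cells, at 51.2, 52.0 and 59.0 CPM, and above them in the other line. In TPM the RAD50 groups of that other line overlapped. With ATR, the kinase that answers replication stress, the pattern was alike: 71.6, 59.3 and 58.4 CPM in vehicle and 48.3, 46.7 and 49.9 CPM in treated libraries of HCT 116p53-/- cells, then 47.8, 55.6 and 59.7 CPM and 60.9, 74.5 and 65.2 CPM in the libraries labelled RPL3 KO. Its interaction was 0.68 (SE 0.15, adjusted p = 0.0112), although the rise in the latter, 0.29 (SE 0.11, adjusted p = 0.0849), was not called alone. These were the 2 members whose interaction was called under each of the 19 alternatives run.

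FANCL had an interaction of 0.67 (SE 0.15, adjusted p = 0.0146): it fell in HCT 116p53-/- cells while in the other line the vehicle libraries were at 31.4 ± 1.87 CPM and the treated libraries at 35.1 ± 1.28 CPM. XRCC2 had 0.72 (SE 0.18, adjusted p = 0.0199), with 31.2, 27.6 and 30.5 CPM and then 24.5, 30.8 and 22.6 CPM in the libraries labelled RPL3 KO, where the groups overlapped. BRCA1, the ubiquitin ligase that favours recombination, had 0.53 (SE 0.14, adjusted p = 0.0259), with 59.2, 50.9 and 53.8 CPM and then 39.7, 37.9 and 40.2 CPM in HCT 116p53-/- cells. In the other line BRCA1 was at 36.1, 31.1 and 32.9 CPM and at 33.1, 38.0 and 32.7 CPM, so that its groups separated in the first line and overlapped in the second.

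MRE11 (0.62, SE 0.17, adjusted p = 0.0331), ATM (0.47, SE 0.13, adjusted p = 0.033) and RAD51D (0.57, SE 0.16, adjusted p = 0.0423) completed the set. For MRE11 neither response alone was called, at -0.34 (SE 0.12) in HCT 116p53-/- cells and 0.28 (SE 0.11) in the libraries labelled RPL3 KO, and for ATM the first was -0.18 (SE 0.09). RAD51D was 9.91 ± 0.938 and 9.01 ± 0.243 CPM in the libraries labelled RPL3 KO. MRE11 and RAD50, and the kinases ATM and ATR, were therefore among the 8. NBN (0.19, SE 0.13) and the kinase gene PRKDC (0.06, SE 0.12) were not. Most of these calls were narrow. Without Act D-treated HCT 116p53-/- replicate 1 only 2 members remained called, RAD50 and ATR, without its replicate 2 there were 3 and without its replicate 3 there were 4. The count was 4 without vehicle-treated HCT 116p53-/- replicate 1 and 5 without its replicate 3, and 5 without vehicle-treated and 3 without Act D-treated RPL3 KO-labelled replicate 2. Calls over all genes moved as well, from 518 higher and 507 lower. Without Act D-treated HCT 116p53-/- replicates 1, 2 and 3 they were 309 and 321, 340 and 329, and 316 and 386. Without vehicle-treated HCT 116p53-/- replicates 1 and 3 they were 420 and 436, and 347 and 373. Without vehicle-treated and Act D-treated RPL3 KO-labelled replicate 2 they were 418 and 455, and 393 and 538.

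**Figure D5:**
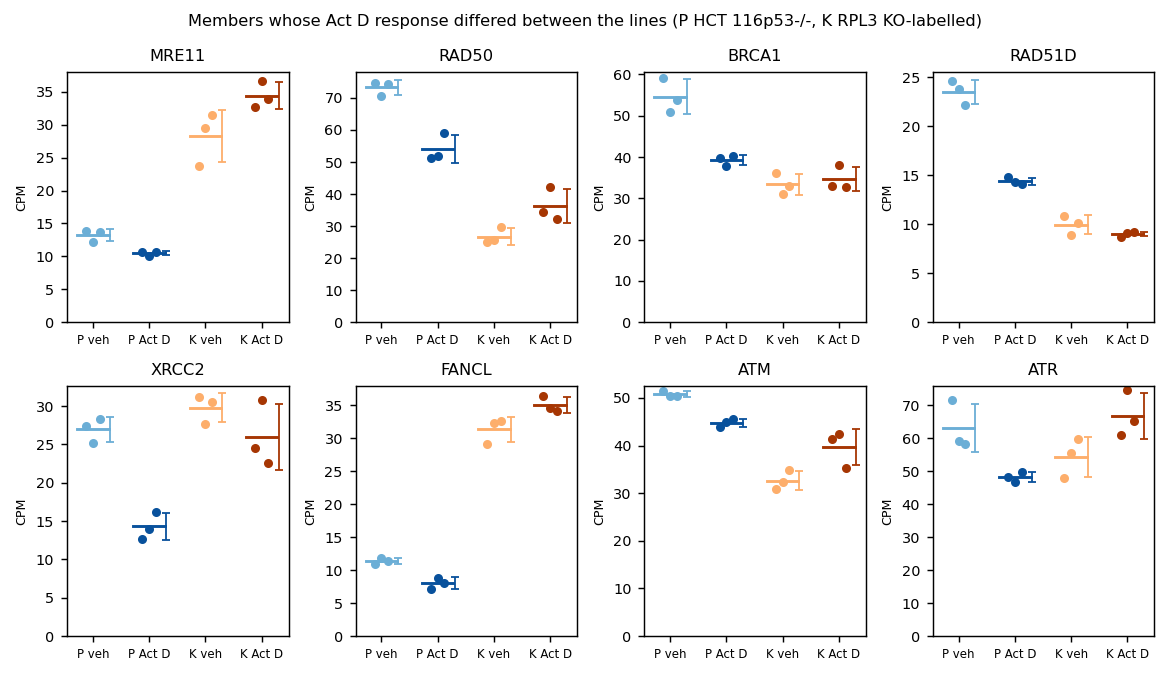
CPM of the 8 members with an adjusted p under 0.05 for the interaction, in each library of HCT 116p53-/- cells (P) and of the libraries labelled RPL3 KO (K) with vehicle or Act D. Points are libraries, horizontal lines are means and bars are SD over 3 libraries. RAD50 goes from 73.3 to 54.1 CPM in P and from 26.7 to 36.3 CPM in K.

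Proliferation genes were examined beside them. In HCT 116p53-/- cells 6 of 22 S phase genes fell and 2 rose with Act D, and of 20 G2/M genes 1 fell and 2 rose, and the G2/M genes summed to 3010 to 3160 CPM without the drug and 3270 to 3350 CPM with it. Over all genes tested 11.1% fell and 7.59% rose in these cells. In the libraries labelled RPL3 KO 5 S phase genes fell and 1 rose, and 1 G2/M gene rose, beside 8.4% of all genes that fell and 3.51% that rose. The interaction was called by edgeR and by DESeq2 for 0 of the 22 S phase and 0 of the 20 G2/M genes, of which 4 and 4 had an unadjusted p under 0.05. Over all 15692 genes tested edgeR called 6.53%, and 1652 higher and 1674 lower had an unadjusted p under 0.05. In lists this short a count of 0 cannot be told apart from that share. The part of the S phase and G2/M genes in the responses described was not tested.

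A wider list of 74 genes of the same pathways, 73 of them tested, was examined in the same way. Between the lines with vehicle 29 (39.7%) were lower and 18 (24.7%) higher in the libraries labelled RPL3 KO, with a median of -0.12, beside 36.2% and 35.1% of all genes tested. The lowest were FIGNL1 (-2.63, SE 0.12), an ATPase of the recombination pathway, and ZSWIM7 (-2.60, SE 0.23), a Shu complex protein. The highest of the recombination list was UIMC1 (1.55, SE 0.08), the RAP80 subunit of the BRCA1-A complex, and among Fanconi genes SLX1A (1.59, SE 0.35), a nuclease subunit whose near-identical copy SLX1B makes its counts uncertain, and USP1 (1.45, SE 0.09), which deubiquitinates FANCD2, were higher. With Act D 27 (37%) were lower and 23 (31.5%) higher, beside 35.3% and 35.1% of all genes, and library size alone changed the higher counts to 10 with vehicle and 13 with Act D.

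With Act D in HCT 116p53-/- cells 23 of the 73 (31.5%) fell and 3 (4.11%) rose (median -0.20), beside 11.1% and 7.59% of all genes, and 14 of the 23 were among 30 other recombination genes. FAAP100, a Fanconi core complex subunit, went from 49.0 to 18.4 CPM (log2 fold change -1.41, SE 0.13). BARD1, the obligate partner of BRCA1, fell by 0.45 (SE 0.10) on the log2 scale. The genes that rose were FAAP24 (0.65, SE 0.19), the partner of FANCM, HELQ (0.47, SE 0.14), a helicase, and HUS1 (0.37, SE 0.11), a subunit of the checkpoint clamp. Of the 73, 9 were called as lower without Act D replicate 2 and 18 without vehicle replicate 3. Over all genes 1254 and 1363 were lower in these settings, in place of 1748. In the libraries labelled RPL3 KO 7 (9.59%) fell and 1 (1.37%) rose (median -0.08), beside 8.4% and 3.51% of all genes. The helicase gene MCM9 fell by 0.68 (SE 0.17), the DNA-end nuclease gene DCLRE1C fell by 0.62 (SE 0.12), RIF1, which restrains resection, fell by 0.54 (SE 0.09), and ETAA1, an activator of ATR, rose by 0.45 (SE 0.13). The interaction was called for 6 of the 73, which is 8.22% and near the 6.53% of all genes, all 6 positive (median 0.11 over the list): FAAP100 (0.80, SE 0.20), ETAA1 (0.78, SE 0.18), the recombination scaffold SPIDR (0.67, SE 0.15), the resection nuclease DNA2 (0.65, SE 0.14), the shieldin subunit SHLD2 (0.59, SE 0.14) and the DNA ligase LIG3 (0.55, SE 0.13).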

How the data were processed

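Total RNA of HCT 116p53-/- cells and a sub-line labelled RPL3 KO was made into TruSeq libraries by the authors and sequenced from both ends. The authors trimmed reads, removed ribosomal and contaminant reads and assigned the rest to hg38 genes with RSEM 1.2.25 (version and build per the labels), and deposited expected counts, TPM and a posterior standard deviation of each count (a score of allocation error) without further normalization. One vehicle-treated HCT 116p53-/- library was deposited per transcript (226788 transcripts) and its expected counts and TPM were summed per gene. It has no posterior SD per gene. GENCODE v44 supplied names and coordinates for 60261 of 60617 identifiers, and promoter sequences came from RefSeq (GRCh38.p14, the first entry per symbol).

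Expected counts were rounded to whole numbers. Of 33990 genes with a count, 15692 passed filterByExpr. edgeR 4.0.16 (TMM normalization, 1 coefficient per group, 12 libraries, common dispersion 0.0117) gave quasi-likelihood tests with Benjamini-Hochberg adjustment at 0.05, and standard errors are the fold change divided by the root of F. The tests were first tested on simulated data. Groups came from the labels. Whether the replicates are separate cultures is given only as "biological", so p-values measure the spread between these libraries. No 2 libraries agreed within counting noise.

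Alternatives were DESeq2 1.42.0, RLE factors, library size alone, upper-quartile scaling, no filter, 1 CPM in at least 3 libraries, a block for the replicate number, a fit of just the 2 groups compared, and each library left out. The members and all gene lists were chosen with earlier results of these data known. Full statistics are given for up to 6 called members per direction and comparison whose groups do not overlap, by size, for members with a called interaction, for the 3 highest and lowest by TPM, and for RPL3. Of the wider pathway list, genes were named from the 2 largest called per direction, comparison and list, not all of which are printed, and further ones (BARD1 and all with a called interaction) were named after their values were seen. Some results are not reported here. R 4.3.3, Python 3.11.15 and pandas 2.3.3 were used.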

Additional observations from a re-analysis of the deposited data

Results flagged for a closer look

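For 8 members and 6 other pathway genes the response to Act D differed between the lines in the test of the difference itself (edgeR's quasi-likelihood interaction, adjusted over 15692 genes), each with the more positive response in the libraries labelled RPL3 KO. The members were RAD50 (0.88, adjusted p = 0.00205), XRCC2 (0.72, 0.0199), ATR (0.68, 0.0112), FANCL (0.67, 0.0146), MRE11 (0.62, 0.0331), RAD51D (0.57, 0.0423), BRCA1 (0.53, 0.0259) and ATM (0.47, 0.033). Of the wider pathway list they were FAAP100 (0.80, 0.0238), ETAA1 (0.78, 0.0147), SPIDR (0.67, 0.0116), DNA2 (0.65, 0.00781), SHLD2 (0.59, 0.0161) and LIG3 (0.55, 0.0155). The 6 are 8.22% of the 73 tested of that list, and 6.53% of all genes tested were called, 3.3% in this direction. Of the 19 alternatives run, 15 ended the call of RAD51D, 13 that of ATM, 11 that of MRE11, 9 that of BRCA1, 3 that of XRCC2 and 1 that of FANCL.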

How the results depend on the processing

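Of the 89 calls on members, 71 held in every alternative run: 31 of 32 between the lines with vehicle, 27 of 31 with Act D, 10 of 13 for Act D in HCT 116p53-/- cells, 1 of 5 in the libraries labelled RPL3 KO (BLM) and 2 of 8 interactions (RAD50 and ATR). RLE size factors and the filter of 1 CPM in 3 libraries changed no member's call. Scaling to library size alone put the all-gene median at -0.26 between the lines with either treatment and at -0.08 and -0.07 in the Act D comparisons, reversed TP53BP1 with Act D to -0.02 and RPL3 between the lines to -0.11 with vehicle and -0.13 with Act D, and for members gave 1 higher with Act D in the libraries labelled RPL3 KO and 5 interactions. Over the wider list it gave 10 higher with vehicle and 13 with Act D between the lines, 1 higher with Act D in HCT 116p53-/- cells, and 0 higher and 12 lower in the other line. Upper-quartile scaling gave, for Act D, 1 member higher in HCT 116p53-/- cells, 4 higher and 1 lower in the other line, 15 lower and 3 higher of the wider list in those lines respectively, and RPL3 at 0.02, 0.04 and 0.02 for both responses and the interaction, where the reported values were -0.01, -0.02 and -0.01. DESeq2 and the fit of only the 2 groups compared each called 1 member higher in HCT 116p53-/- cells, and the latter called 0 higher and 1 lower in the other line and 0 higher of the wider list. Without a filter on low counts 1 member rose in that line, 0 of the wider list rose, and 5 member interactions were called, with 1 lower interaction in the wider list. The cause of these changes was not tested.

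Nothing in the labels makes a number a shared batch, and the descriptions count the Act D-treated libraries labelled RPL3 KO on from the vehicle libraries. Correlations of deviations between same-numbered libraries were from -0.293 to 0.154. For Act D in HCT 116p53-/- cells all 3 were positive (0.0755, 0.151 and 0.154), but vehicle replicate 1 correlated better with Act D replicate 2 (0.128) than with its own number. The numbers were therefore not taken to pair the samples. With the replicate block 1 member rose with Act D in the libraries labelled RPL3 KO, 0 of the wider list rose, and 5 member interactions were called. Over all genes the block gave 374 higher and 348 lower interactions in place of 518 and 507, and 398 higher and 1104 lower for Act D in the libraries labelled RPL3 KO in place of 551 and 1318.

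With each library left out in turn, members called higher with Act D in HCT 116p53-/- cells numbered 0 to 1, and those of the wider list 0 to 2 higher and 9 to 18 lower. Over all genes 664 to 894 were higher and 1169 to 1435 lower there, in place of 1191 and 1748. In the libraries labelled RPL3 KO 0 to 2 members were higher and 1 to 3 lower, and 0 to 1 of the wider list higher. Over all genes 295 to 474 were higher and 923 to 1235 lower in that line, in place of 551 and 1318. Member interactions numbered 2 to 7, and 0 to 1 of the wider list were lower. Interactions over all genes numbered 300 to 481 higher and 314 to 538 lower, in place of 518 and 507. RPL3 with Act D ranged from -0.03 to 0.01 in HCT 116p53-/- cells and from -0.09 to 0.03 in the other line, and its interaction from -0.08 to 0.04. FANCF, with a lowest count of 29, limits what could be seen for the least expressed members.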
